A study of Homo sapiens with 6 samples.

Results

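Cytochrome P450 (CYP) enzymes are heme proteins that insert an oxygen atom into drugs, fatty acids, sterols, bile acids and vitamins. Families CYP1 to CYP3 are best known for the clearance of foreign compounds by the liver, CYP4 enzymes hydroxylate fatty acids and leukotrienes, and the higher-numbered families make or break down steroid hormones, bile acids, vitamin D and retinoic acid. Hepatoma lines are known to keep little of the drug-metabolising CYP set of normal liver. The genes described here are those of the deposited table whose symbol is CYP, a family number, a letter group and a member number. CYP51A1, the cholesterol synthesis enzyme, and symbols with the ending used for pseudogenes were left out. This gave 52 of the 33707 genes in the table, in 16 families. CYP2D7, which has no functional product in most people, fits the rule and was kept.

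The cells were Huh7, an established human liver cancer line, sampled on day 2, in 2 groups of 3 libraries. The first group was transfected with miR-361-3p mimics, synthetic copies of a microRNA, and the second with mimics-NC, a negative control mimic. Both mimics were designed by RiboBio, and the labels give 1 transfection protocol, with a lipid reagent, for all 6 samples. The treatment tag of the mimics-NC samples reads wild type, while their titles name the control mimic. Replicate 3 of the miR-361-3p mimics carries the cell line tag Huh8 although its title says Huh7. It was kept with its group, and results are also given without it. Nothing in the labels says that replicates were separate cultures, so the spread behind each p-value is that between these libraries and may be technical.

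Libraries held 35020139 to 52977132 assigned reads, lowest in miR-361-3p mimics replicate 1. Of 12 hepatocyte markers, 11 had a mean of at least 1 RPKM (read number scaled to gene length and to the library's assigned reads). Albumin averaged 52.3 ± 1.73 RPKM with the mimic and 52.4 ± 2.26 RPKM with the control (SD, n = 3 each). The lowest of these 11 was AFP, only just above the limit. It averaged 1.18 ± 0.168 RPKM with the mimic and 1.24 ± 0.0512 RPKM with the control. By limma 0 of the 11 markers tested rose or fell, and their median fold change was -0.05 on the log2 scale. The read-based test described below (voom, genes with a mean of at least 10 reads) called 2 of 12 higher, transthyretin and APOB, and 1 lower, FGB (adjusted p = 0.00885, 0.0295 and 0.00505). Of all genes 11.7% rose and 9.85% fell by limma, and 11.6% were higher and 9.98% lower by voom. Transthyretin stood at 0.584 ± 0.194 RPKM with the mimic and 0.271 ± 0.0668 RPKM with the control. Of the markers of other cell types, the 4 fibroblast or stellate genes summed to 1.03 to 1.51 RPKM with the mimic and 1.41 to 2.50 RPKM with the control, and the 4 cholangiocyte genes to 1.54 to 1.65 and 1.09 to 1.42 RPKM. By voom the fibroblast genes COL1A1 and COL3A1 were lower with the mimic (adjusted p = 0.0023 and 0.0153) and SOX9 of the cholangiocyte list was higher (adjusted p = 0.0256). Of 4 endothelial genes 3 were under 0.1 RPKM, as were 2 of 5 immune genes, PTPRC and CD3E. The endothelial list summed to 4.41 to 4.72 and 4.34 to 4.43 RPKM and the immune list to 44.9 to 51.0 and 44.2 to 48.2 RPKM, with 0 of their genes called by limma or by voom. The genes behind these sums were PECAM1, at a mean of 4.29 RPKM over all libraries, and CD68 and LYZ, at 36.4 and 10.3 RPKM, levels above those of most CYP genes expressed here. The part of these markers in any CYP result was not tested. In bulk RNA, fewer cells that express a gene and less RNA per cell cannot be told apart.

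The mimic is named for mature miR-361-3p, whose sequence is shown with the seed, bases 2 to 8, in capitals, because a microRNA pairs with target messages through these bases. The sequence is that of RefSeq (GRCh38.p14, chrX:85903641-85903663, minus strand). The sequence of the mimic itself is not given in the sources used here.
hsa-miR-361-3p: uCCCCCAGgugugauucugauuu

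Sites that match the seed were searched in the longest 3' UTR of each gene in GENCODE release 29. They are CTGGGGG (bases 2 to 8), TGGGGGA (bases 2 to 7 followed by A) and CTGGGGGA (8mer, both). Of 51 members with a 3' UTR, 7 held at least 1 site, a share of 13.7%, against 26.3% of all 16508 genes. The members' 3' UTRs had a median length of 786 bases and those of all genes one of 1196 bases. The 8mer stood in 3 members, CYP2U1, CYP4F3 and CYP19A1, a share of 5.88% against 6.09% of all genes. The 8mers of CYP2U1 and CYP4F3 and the site of CYP2R1, which holds CTGGGGG, are shown because these are the members of at least 0.1 RPKM that hold a site. Capitals mark the site, and each lies in an exon of the deposited table.
CYP2U1 (chr4:107950969-107950976, plus strand): ttaggttataCTGGGGGAgaacttttct
CYP4F3 (chr19:15661235-15661242, plus strand): acgctccagcCTGGGGGAgggggacata
CYP2R1 (chr11:14877775-14877781, minus strand): gccttctgtcCTGGGGGgccttggttc

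Expression of the CYP genes in these cells was narrow. Averaged over all libraries, 1 RPKM or more was reached by 10 members, or 19.2%, while 39.0% of all genes in the table reached it. A further 15 had 0.1 to 1 RPKM and 27 less than 0.1 RPKM. Just above the limit of 1 RPKM stood CYP4F12 at 1.001 and CYP39A1 at 1.09 RPKM, and just below it CYP4F11 at 0.854 and CYP26A1 at 0.643 RPKM. All 52 members together summed to 57.4, 56.1 and 54.5 RPKM in the miR-361-3p mimics libraries and 53.2, 50.4 and 49.8 RPKM in the mimics-NC libraries. The 4 most abundant members, CYP24A1, CYP2S1, CYP4F3 and CYP1A1, made up 71.8% to 72.7% of that sum with the mimic and 71.0% to 72.0% with the control. In the order of mean levels, CYP24A1 lay above all others in every library. CYP2S1 and CYP4F3 overlapped each other, CYP1A1 lay apart from its neighbours, CYP20A1 and CYP2R1 overlapped, and from CYP2J2 downward no 2 neighbours were separated beyond their spread in the upper 25.

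**Figure D1:**
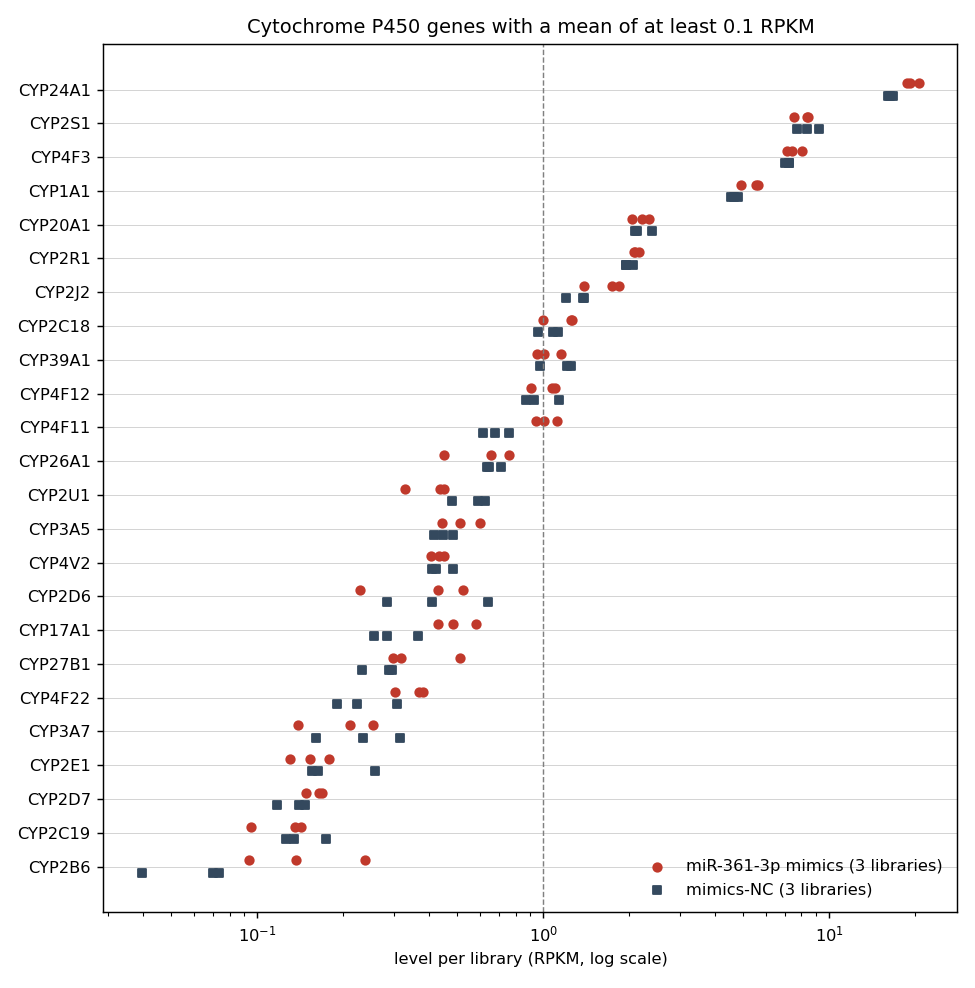
Level in every library of the CYP genes named in the text with a mean of at least 0.1 RPKM (RPKM, log axis), with circles for the 3 miR-361-3p mimics libraries above squares for the 3 mimics-NC libraries; the dashed line is 1 RPKM. CYP24A1 stands at the top with 18.8 to 20.6 RPKM with the mimic and 16.0 to 16.8 RPKM with the control, and 10 genes have a mean of at least 1 RPKM.

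The libraries compare miR-361-3p mimics with the control mimic. The 13158 genes that averaged 1 RPKM or more were tested by limma on log2(RPKM + 0.5), a scale that understates the change of low genes, and p-values were adjusted by Benjamini-Hochberg across them. By this test 1 of the 10 members tested rose, CYP24A1, and 0 fell. Among all genes tested 11.7% rose and 9.85% fell, and with 10 members neither count was far from these shares. Of the 10 members 3 had an unadjusted p under 0.05 by limma, all higher with the mimic. The matching share of all genes was not counted, but it cannot be under the 21.5% called after adjustment. Voom, which tests the read numbers recovered from the RPKM values, called 2 of the same 10 higher and 0 lower, against 15.7% and 13.4% of all genes in that fit. The median log2 fold change of the 10 was 0.07, against 0.01 for all genes tested. Every mimic library lay above every control library for CYP24A1, CYP1A1 and CYP2R1. Of all genes tested, 22.3% were separated in this direction and 19.1% in the other.

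Vitamin D is activated by hydroxylation in the liver by CYP2R1 and in the kidney by CYP27B1, and CYP24A1, a mitochondrial enzyme, starts its breakdown. CYP24A1 (chromosome 20, 54153449 to 54173973, GRCh38) measured 20.6, 19.2 and 18.8 RPKM in the miR-361-3p mimics libraries and 16.8, 16.0 and 16.4 RPKM in the mimics-NC libraries. All 3 mimic libraries lay above all 3 control libraries. The group means were 19.5 ± 0.926 and 16.4 ± 0.368 RPKM (SD, n = 3 each), a ratio of 1.19. The log2 fold change was 0.24 with a standard error of 0.04 (limma, adjusted p = 0.00939), and 0.27 without replicate 3 of the mimics (adjusted p = 0.0198). With any 1 library left out it stayed past the threshold, at adjusted p 0.0198 to 0.0389, and its 3' UTR of 1323 bases held 0 seed sites.

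CYP2R1 averaged 2.11 ± 0.0454 RPKM with the mimic and 1.99 ± 0.0597 RPKM with the control, and its log2 fold change of 0.07 had a 95% interval of -0.06 to 0.20 (limma, adjusted p = 0.406). CYP27B1 measured 0.299, 0.513 and 0.319 RPKM with the mimic and 0.289, 0.296 and 0.232 RPKM with the control. One mimic library, that of replicate 2, was far above the other 2, and the groups were separated only narrowly, by 0.299 against 0.296 RPKM. With the limit for testing lowered to 0.1 RPKM the log2 fold change was 0.18 (limma, adjusted p = 0.397). By voom on genes with a mean of at least 10 reads it was 0.45 with a 95% interval of -0.08 to 0.98 (adjusted p = 0.231). Exons of CYP27B1 overlap those of METTL1, a tRNA methyltransferase gene on the same strand, which rose to 6.88 ± 0.102 RPKM with the mimic, against 6.03 ± 0.321 RPKM with the control (limma, adjusted p = 0.0402). How reads in the shared exons were assigned is not given in the sources used here. VDR, the vitamin D receptor, through which vitamin D is known to induce CYP24A1, had 8, 2 and 2 reads with the mimic and 8, 6 and 10 reads with the control. Its means were 0.0187 ± 0.0187 and 0.0301 ± 0.00899 RPKM, below those of all 25 CYP genes of at least 0.1 RPKM.

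Families CYP1 to CYP3 hold the enzymes of drug and carcinogen oxidation. CYP1A1 (chromosome 15, 74719542 to 74725610), which oxidises polycyclic aromatic hydrocarbons and is induced through the aryl hydrocarbon receptor, measured 5.54, 5.62 and 4.92 RPKM with the mimic and 4.64, 4.80 and 4.54 RPKM with the control. The groups did not overlap, and the replicate labelled Huh8 was the lowest mimic library. Its log2 fold change was 0.18 with a 95% interval of 0.04 to 0.32 and did not pass (limma, adjusted p = 0.0675). Without replicate 3 of the mimics it was 0.24 (adjusted p = 0.0336), by voom on the same genes 0.20 (adjusted p = 0.0441), by voom on genes with a mean of at least 10 reads also 0.20 (adjusted p = 0.0539), and with 1 of the other libraries left out the adjusted p reached 0.168. The other CYP1 genes were near the detection limit. CYP1A2, a major liver enzyme that metabolises caffeine, had 0 reads in all 3 mimic libraries and 2, 4 and 0 in the controls. CYP1B1 had 12 to 22 reads with the mimic and 18 to 38 with the control. It shares exonic positions with RMDN2 on the opposite strand, which rose to 1.38 ± 0.0711 RPKM, against 0.992 ± 0.0622 RPKM (limma, adjusted p = 0.0207).

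In family CYP2, 4 of 16 members reached 1 RPKM and none of them passed by limma; 1, CYP2J2, had an unadjusted p of 0.0499, and none passed by voom on the same genes. CYP2S1 (chromosome 19, 41193049 to 41207539), found mainly in epithelia outside the liver, measured 7.54, 8.36 and 8.44 RPKM with the mimic and 9.20, 8.38 and 7.71 RPKM with the control. The groups overlapped, and the 95% interval of its log2 fold change ran from -0.22 to 0.12. CYP2J2, which makes epoxides from arachidonic acid, measured 1.74, 1.85 and 1.38 RPKM with the mimic and 1.39, 1.38 and 1.20 RPKM with the control. Its log2 fold change was 0.24 (limma, adjusted p = 0.139), and the groups overlapped narrowly, since mimic replicate 3 lay between the controls. Without that library the read-based value was 0.44 and passed (voom, adjusted p = 0.0279), against 0.31 with it (adjusted p = 0.102). CYP2C18 averaged 1.17 ± 0.150 and 1.05 ± 0.0872 RPKM. It shares exons with the read-through gene RP11-400G3.5, as does CYP2C19.

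The members of the family below 1 RPKM in both groups included hepatic drug enzymes. CYP2D6, which oxidises many psychoactive drugs, averaged 0.395 ± 0.152 RPKM with the mimic and 0.444 ± 0.181 RPKM with the control, its neighbour CYP2D7 0.160 ± 0.0104 and 0.134 ± 0.0156 RPKM, and reads of this closely similar pair may be shared. CYP2C19, which clears proton pump inhibitors, averaged 0.124 ± 0.0253 and 0.145 ± 0.0258 RPKM, and CYP2E1, which oxidises ethanol, 0.154 ± 0.0240 and 0.192 ± 0.0575 RPKM. CYP2C8, CYP2A6, CYP2A7, CYP2F1 and CYP2W1 were under 0.1 RPKM.

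CYP2B6 (chromosome 19, 40991299 to 41018398), a target of the receptors CAR and PXR that clears bupropion, measured 0.239, 0.0933 and 0.137 RPKM with the mimic and 0.0396, 0.0736 and 0.0702 RPKM with the control. These levels rest on 30, 15 and 22 reads and on 6, 14 and 12 reads. Every mimic library lay above every control library, but mimic replicates 1 and 2 differed from each other by more than replicate 2 did from the controls. With the limit lowered to 0.1 RPKM the log2 fold change was 0.22 (limma, adjusted p = 0.264). The added 0.5 draws such a low gene toward 0, and voom on genes with a mean of at least 10 reads, a test added after the data were seen, gave 1.19 with a standard error of 0.44 (adjusted p = 0.0531). That value was 0.88 without mimic replicate 1 (adjusted p = 0.209) and 1.51 without mimic replicate 2, where it passed (adjusted p = 0.0182).

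CYP2U1 (chromosome 4, 107931369 to 107953457), a fatty acid hydroxylase, was the 1 member lower by the read-based test. It measured 0.328, 0.436 and 0.451 RPKM with the mimic and 0.626, 0.480 and 0.593 RPKM with the control, on 70 to 123 and 155 to 172 reads. All mimic libraries lay below all controls. The read-based log2 fold change was -0.45 with a 95% interval of -0.79 to -0.11 (voom, adjusted p = 0.0499), while the RPKM test with the limit at 0.1 gave -0.24 (limma, adjusted p = 0.182). By voom 9.98% of the 18891 genes tested were lower and 11.6% higher. The call held without mimics-NC replicate 2 (adjusted p = 0.0235) and was lost with any of the other 5 libraries left out (adjusted p up to 0.210). CYP2U1 holds the 8mer shown above and 1 TGGGGGA in a 3' UTR of 3034 bases. Among genes with an 8mer 11.0% of 811 were lower by voom, against 12.3% of 9464 genes with no site. The shares that were higher were 12% and 14.1%. The part of the sites in the level of CYP2U1 was not tested. The other members with an 8mer did not pass: CYP4F3 had a read-based log2 fold change of 0.07 and CYP19A1 one of -0.38 (voom, adjusted p = 0.448 and 0.508).

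In family CYP3, the family of the main drug-metabolising enzyme of adult liver, CYP3A4, none of 4 members reached 1 RPKM, so none entered the main test. CYP3A5 averaged 0.519 ± 0.0795 RPKM with the mimic and 0.448 ± 0.0337 RPKM with the control. CYP3A7, the form of fetal liver, averaged 0.201 ± 0.0577 and 0.237 ± 0.0774 RPKM. CYP3A4 had 2, 10 and 9 reads with the mimic and 24, 20 and 6 reads with the control, so that the groups overlapped. Its read-based log2 fold change was -0.96, with a wide 95% interval of -2.15 to 0.23 (voom, adjusted p = 0.265). That value was -1.55 without mimics-NC replicate 3, where it passed (adjusted p = 0.0477), and -0.47 without mimic replicate 1 and -0.56 without mimics-NC replicate 1, where it did not (adjusted p = 0.642 and 0.583). Summed over the family, levels were 0.789 ± 0.0481 and 0.804 ± 0.159 RPKM. Exons of CYP3A7 are shared with the read-through gene CYP3A7-CYP3A51P.

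**Figure D2:**
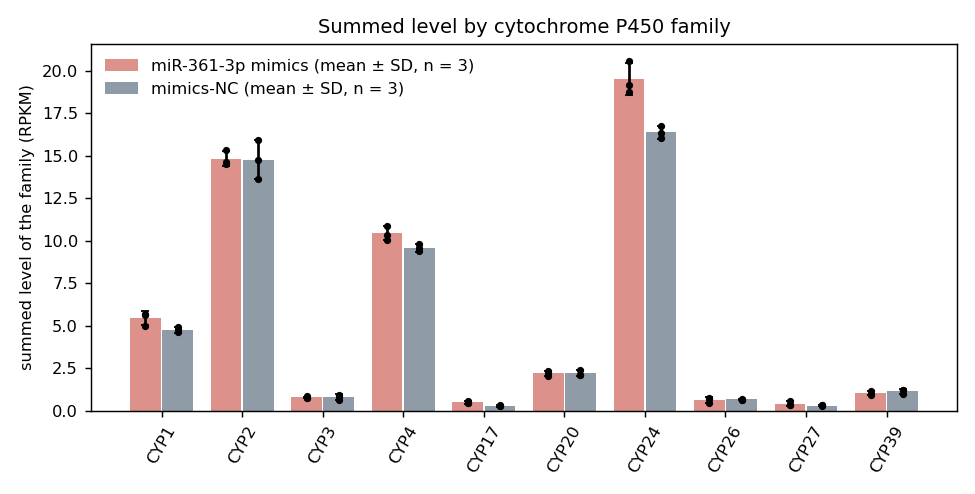
Summed level of each CYP family with at least 0.1 RPKM (bars, mean; error bars, SD over 3 libraries; points, single libraries), with miR-361-3p mimics left of mimics-NC. CYP24, CYP2 and CYP4 hold most of the sum, at 19.5, 14.8 and 10.4 RPKM with the mimic and 16.4, 14.8 and 9.59 RPKM with the control.

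Family CYP4 hydroxylates fatty acids, eicosanoids and vitamin K, and its CYP4F branch lies in 1 cluster of 6 genes on chromosome 19, between 15508493 and 15934867. Levels inside this cluster ranged widely. CYP4F3 (15615617 to 15662825), which inactivates leukotriene B and in liver hydroxylates fatty acids, measured 8.01, 7.10 and 7.43 RPKM with the mimic and 7.22, 7.0 and 7.25 RPKM with the control. The groups overlapped, and the 95% interval of its log2 fold change was -0.06 to 0.18 (limma, adjusted p = 0.412). CYP4F12 averaged 1.02 ± 0.106 and 0.978 ± 0.138 RPKM, with an interval of -0.19 to 0.28. CYP4F22, a ceramide-pathway hydroxylase of skin, averaged 0.351 ± 0.0409 and 0.241 ± 0.0599 RPKM, and CYP4F2 and CYP4F8 were under 0.1 RPKM. Genes of this cluster resemble each other, and exons of CYP4F3 and CYP4F8 overlap, so reads may be shared.

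CYP4F11 (15912367 to 15934867), a fatty acid and vitamin K hydroxylase, differed most clearly in the cluster. It measured 0.943, 1.01 and 1.12 RPKM with the mimic and 0.759, 0.680 and 0.615 RPKM with the control, and the groups did not overlap. The ratio of means was 1.49. As its mean was below 1 RPKM it did not enter the main test. With the limit at 0.1 RPKM it rose, with a log2 fold change of 0.36 (limma, adjusted p = 0.0377), a call made for 2 of 25 members in that fit, against 5.95% of the 20975 genes tested. In that fit 0 members fell, against 5.32% of genes. At an unadjusted p under 0.05 by limma, 4 members were higher and 1, CYP2U1, was lower. The matching shares of all genes were not counted, but they cannot be under the 5.95% and 5.32% called after adjustment. Without them the counts of 4 and 1 give no direction for the members. The call of CYP4F11 was lost with any 1 library left out, at adjusted p 0.0561 to 0.113. By voom on reads the log2 fold change was 0.59 with a standard error of 0.14 (adjusted p = 0.00308), and there it stayed past the threshold with any 1 library left out (adjusted p up to 0.0250). CYP4V2, a fatty acid hydroxylase of the eye, averaged 0.429 ± 0.0235 RPKM with the mimic and 0.437 ± 0.0395 RPKM with the control.

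**Figure D3:**
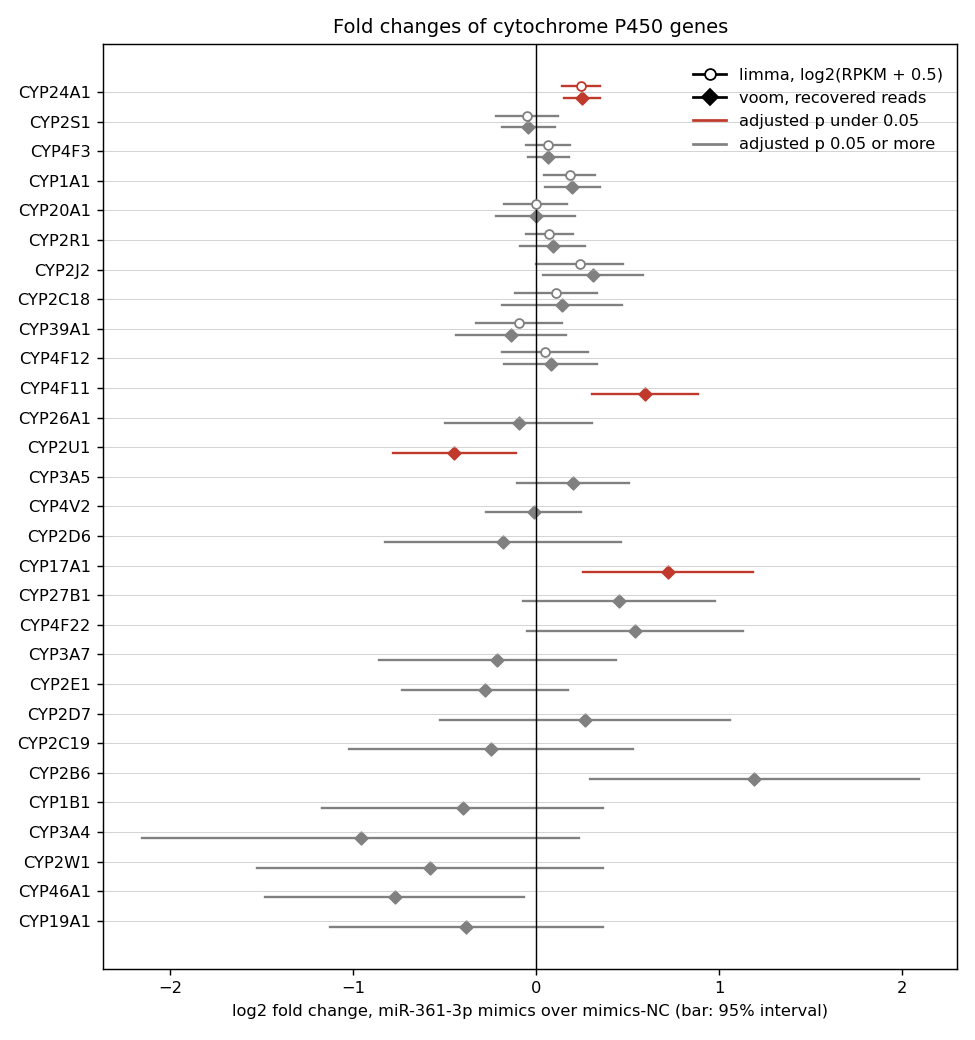
Log2 fold change of miR-361-3p mimics over mimics-NC with its 95% interval for the CYP genes named in the text with a mean of at least 10 reads, in order of level; open circles are limma on log2(RPKM + 0.5) and diamonds are voom on reads, in red where the adjusted p is under 0.05. CYP24A1 is red in both fits, CYP4F11 and CYP17A1 are red and to the right by voom, and CYP2U1 is red and to the left.

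The CYP families of bile acid synthesis were almost silent. CYP7A1, the rate-limiting enzyme of the classical pathway, had 2, 0 and 0 reads with the mimic and 0 in every control library, and CYP7B1 had 2, 0 and 2 reads and 0 in every control. CYP8B1, which sets the share of cholic acid, had 4 to 8 reads with the mimic and 6 to 18 with the control, and CYP27A1, the first enzyme of the alternative pathway, 0 to 6 and 1 to 4. The exception was CYP39A1, which hydroxylates an oxysterol, at 1.16, 1.01 and 0.949 RPKM with the mimic and 1.25, 0.971 and 1.22 RPKM with the control. The groups overlapped (log2 fold change -0.10, 95% interval -0.33 to 0.14). CYP46A1, the cholesterol hydroxylase of brain, averaged 0.0635 ± 0.0385 and 0.0953 ± 0.0207 RPKM. Its read-based log2 fold change was -0.77 (voom, adjusted p = 0.117), and -1.17 without mimic replicate 1, where it passed (adjusted p = 0.035).

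Of the steroid hormone enzymes, CYP11A1, CYP11B1 and CYP21A2 had at most 4 reads in any library, and CYP19A1, aromatase, had 14 to 16 reads with the mimic and 19 to 29 with the control. CYP17A1 (chromosome 10, 102830531 to 102837533), which leads from progestins to androgens, was the steroidogenic member above 0.1 RPKM. It measured 0.582, 0.429 and 0.482 RPKM with the mimic and 0.364, 0.256 and 0.285 RPKM with the control, on 65 to 73 and 46 to 52 reads. The groups did not overlap, and the ratio of means was 1.65. The read-based log2 fold change was 0.72 with a 95% interval of 0.26 to 1.19 (voom, adjusted p = 0.0227), and the RPKM test with the limit at 0.1 gave 0.31 (limma, adjusted p = 0.0933). By voom the call held without mimic replicate 2 or mimics-NC replicate 1 and was lost without any of the other 4, at adjusted p up to 0.116 (0.0521 without the library tagged Huh8). Exons of CYP17A1 overlap those of CYP17A1-AS1 on the opposite strand, which averaged 0.251 ± 0.125 RPKM with the mimic and 0.0285 ± 0.0494 RPKM with the control. Without the strand setting of the counting, reads of the pair cannot be told apart.

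**Figure D4:**
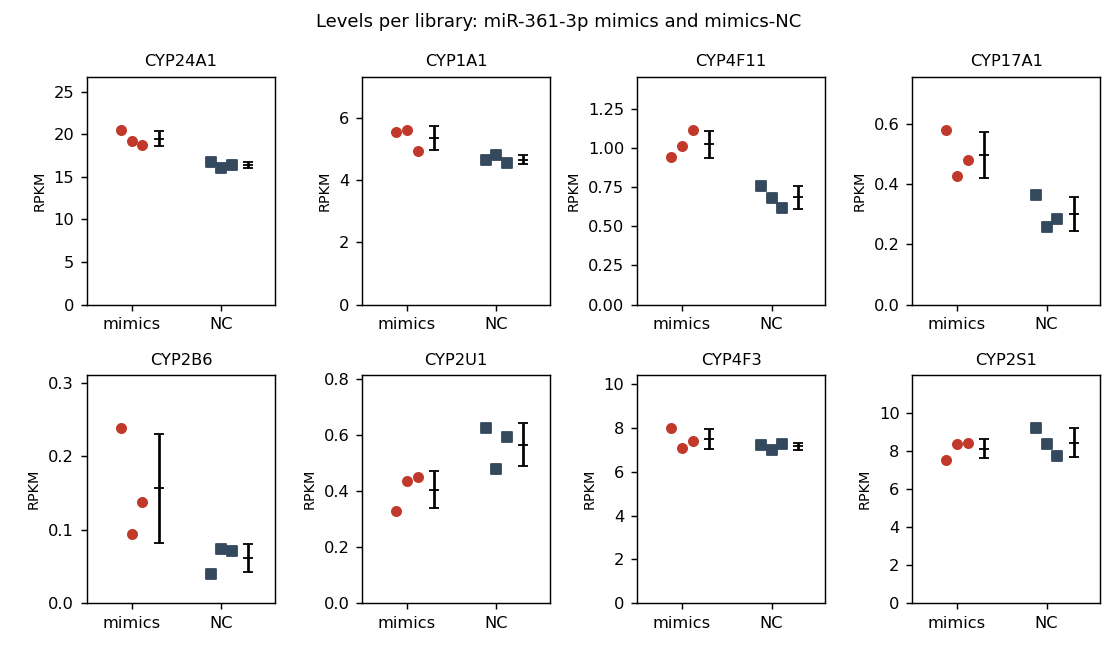
Level per library (RPKM, linear axes from 0) of 8 CYP genes in miR-361-3p mimics (circles, left) and mimics-NC (squares, right), with mean and SD beside the points (n = 3). Mimic and control values stand apart for CYP24A1, CYP1A1, CYP4F11, CYP17A1 and CYP2B6, which are higher with the mimic, and for CYP2U1, which is lower, and overlap for CYP4F3 and CYP2S1. The 8 genes shown are a selection. Of the 25 members of at least 0.1 RPKM, 8 were separated with the mimic higher and 1 with it lower. Of all 20975 genes at that limit, 17.5% and 14.9% were so separated.

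CYP26 enzymes clear retinoic acid. CYP26A1, the main liver form, measured 0.452, 0.759 and 0.655 RPKM with the mimic and 0.646, 0.711 and 0.636 RPKM with the control. One mimic library was lowest and another highest of all 6, so the groups overlapped. CYP26B1 and CYP26C1 had at most 2 reads in any library. CYP20A1, an enzyme with no settled substrate, measured 2.21, 2.04 and 2.35 RPKM with the mimic and 2.13, 2.09 and 2.39 RPKM with the control. The groups overlapped widely, and the 95% interval of its log2 fold change ran from -0.17 to 0.17. Over the 27 members under 0.1 RPKM the highest number in any library was 53 reads, and 10 of them had at most 3 reads in every library. For these 10 no difference was detectable at this depth.

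By read numbers, then, 30 members with a mean of at least 10 reads could be tested. Of these 3 were higher, CYP24A1, CYP4F11 and CYP17A1, and 1 was lower, CYP2U1, against 11.6% and 9.98% of all genes tested. Their median log2 fold change was -0.01, against 0.02 for all genes in that fit. The fitted folds were positive for 14 and negative for 16 members.

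CYP enzymes depend on electron donors, heme supply and regulators. Of 13 listed donors and partners 12 were found and tested, of which 1 rose and 0 fell by limma, against 11.7% and 9.85% of all genes. The gene that rose was HMOX1, which breaks down heme, at 13.4 ± 0.425 RPKM with the mimic and 10.1 ± 0.213 RPKM with the control (adjusted p = 0.00105). POR, the reductase that feeds electrons to the microsomal CYP enzymes, averaged 8.63 ± 0.397 and 8.87 ± 0.364 RPKM (adjusted p = 0.616). FDX1, the mitochondrial donor used by CYP24A1, averaged 4.21 ± 0.228 and 3.79 ± 0.171 RPKM (adjusted p = 0.134). By voom 3 of the 12 were higher and 0 lower, against 11.6% and 9.98% of all genes in that fit. These 3 were HMOX1, the cytochrome b5 gene CYB5A (adjusted p = 0.034) and ALAS1, which starts heme synthesis. ALAS1 averaged 40.4 ± 0.571 RPKM with the mimic and 35.9 ± 2.35 RPKM with the control and did not pass by limma (adjusted p = 0.0538, by voom 0.0116). The list's median log2 fold change was 0.12, against 0.01 for all genes.

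Among 9 xenobiotic receptors and partners 6 were tested, with a median of 0.15. By limma 2 rose and 0 fell, against 11.7% and 9.85% of all genes. NR3C1, the glucocorticoid receptor, rose to 6.74 ± 0.172 RPKM with the mimic, against 4.77 ± 0.170 RPKM with the control (adjusted p = 0.000951). AHR, the aryl hydrocarbon receptor, rose to 7.56 ± 0.456 RPKM, against 6.22 ± 0.253 RPKM (adjusted p = 0.0175), a call kept in 4 of the 6 fits with a library left out and lost without mimic replicate 3 (adjusted p = 0.0561). NR1I2, the receptor PXR, was low, at 0.153 ± 0.0334 and 0.152 ± 0.0280 RPKM. NR1I3, the receptor CAR, averaged 3.11 ± 0.0835 and 2.60 ± 0.349 RPKM and did not pass (adjusted p = 0.107).

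Of 14 hepatocyte regulators of CYP genes 13 were tested, 3 rose and 0 fell by limma, while the list's median was -0.08. Among all genes tested by limma 11.7% rose and 9.85% fell. PPARGC1A, a coactivator of fasting metabolism, rose to 6.19 ± 0.534 RPKM with the mimic, against 4.20 ± 0.162 RPKM with the control (log2 fold change 0.51, adjusted p = 0.00271). NR5A2 and NR1H4, the bile acid receptor FXR, passed with log2 fold changes of 0.23 and 0.17 (adjusted p = 0.0199 and 0.0333), but kept their call in 2 and 1 of the 6 fits with a library left out, and neither did without mimic replicate 3 (adjusted p = 0.0606 and 0.0772). By voom the same 3 were higher and 1, ONECUT1, was lower, against 11.6% and 9.98% of all genes in that fit. NR1H4 was also lost by limma under median-of-ratios and quantile scaling (adjusted p = 0.0557 and 0.0512).

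Of 10 genes other than CYP that AHR and the other xenobiotic receptors are known to induce 7 were tested. By limma 4 rose and 0 fell, against 11.7% and 9.85% of all genes, with a median of 0.21. The 3 that did not pass were TIPARP, ABCB1 and ABCG2, with log2 fold changes of 0.03, 0.001 and 0.13 (limma, adjusted p = 0.737, 0.989 and 0.188). GSTA1, a glutathione transferase, rose to 12.5 ± 1.17 RPKM with the mimic, against 9.58 ± 0.472 RPKM with the control, and NQO1, a quinone reductase, to 63.7 ± 1.62 RPKM, against 54.9 ± 1.36 RPKM. UGT1A1 and ABCC2 were the other 2 that rose, with log2 fold changes of 0.71 and 0.31. All 4 kept their calls with any 1 library left out. Exons of UGT1A1 overlap those of other UGT1A genes on the same strand, so its reads may be shared with them. This list was written with results for UGT1A1 and ABCC2 known, and is no independent evidence of a direction.

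Outside the CYP families, 1 of 7 tested bile acid synthesis enzymes rose and 0 fell by limma: HSD17B4, of peroxisomal chain shortening, at 33.0 ± 0.36 RPKM with the mimic and 28.8 ± 0.234 RPKM with the control. In the retinoic acid and vitamin D list 1 of 9 rose and 0 fell by limma: ALDH1A1, which makes retinoic acid, at 1271 ± 26.6 and 1071 ± 45.3 RPKM (adjusted p = 0.0106). In the steroid hormone list 0 of 5 rose and 1 fell by limma, the steroid sulfatase STS, at 3.05 ± 0.116 and 3.53 ± 0.126 RPKM (adjusted p = 0.0483), which no longer passed in any fit with 1 library left out. Among eicosanoid enzymes 2 of 6 rose and 0 fell by limma. PTGS2, the inducible cyclooxygenase, rose to 3.99 ± 0.189 RPKM with the mimic, against 2.08 ± 0.0994 RPKM with the control (log2 fold change 0.80, adjusted p = 0.000323). EPHX2, which hydrolyses the epoxides that CYP2J2 makes, rose to 3.50 ± 0.238 RPKM, against 2.85 ± 0.225 RPKM (adjusted p = 0.0448), a call kept in 2 of the 6 fits with a library left out and lost without mimic replicate 3 (adjusted p = 0.119). The medians of these 4 lists were 0.07, 0.03, 0.03 and 0.12. By voom on genes with a mean of at least 10 reads the calls of these lists, in the same order, were 2 of 10 higher and 0 lower, 1 of 10 higher and 1 lower, 0 of 7 higher and 1 lower, and 4 of 10 higher and 0 lower. Of all genes 11.7% were higher and 9.85% lower by limma, and 11.6% were higher and 9.98% lower by this voom fit.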

How the data were processed

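The authors deposited 1 table of RPKM values with each gene's exons on GRCh38 and its length. The submitters' processing notes name edgeR 3.12.1, featureCounts (Subread 1.5.1) and Trimmomatic 0.36. The library kit was stranded per the labels; the aligner, the annotation and the strand setting of the counting were in none of the sources used here. The read numbers recovered from RPKM times length were whole, within 0.01, for 100% of values. Values of 2 reads (16872) outnumbered values of 1 read (5676); whether both mates of a pair were counted is not given, so read numbers may not be independent molecules.

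The genes that averaged 1 RPKM or more were fitted as log2(RPKM + 0.5) with limma 3.58.1 (R 4.3.3, empirical Bayes with an intensity trend, two-sided, Benjamini-Hochberg, threshold 0.05). The fit was tested on simulated data for genes of at least 1 RPKM, which leaves the members below that limit uncovered. Alternatives were pseudocounts of 0.1 and 1, limits of 0.1 RPKM and none, median-of-ratios and quantile scaling, voom on reads, a replicate block and each library left out; voom at a mean of 10 reads was added after the data were seen. Replicate libraries differed by more than counting error (chi-square per degree of freedom 4.15 to 9.38). The text names the members of at least 0.1 RPKM except 1 not reported here, and of the other lists up to 5 genes past the threshold; other members and genes were named after their values were seen. Members and lists were chosen with earlier results of these data known.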

Additional observations from a re-analysis of the deposited data

How the results depend on the processing

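CYP24A1 kept its direction and its call under every alternative run, with log2 fold changes of 0.21 to 0.28, read-based fits with 1 library left out included. The number of CYP genes higher was 2 with the limit at 0.1 RPKM, 2 by voom on the same genes and 3 by voom at a mean of 10 reads, and 1 to 2 with 1 library left out, 2 being without replicate 3 of the mimics. The number lower was 1 by voom at a mean of 10 reads. The number of CYP genes called expressed was 25 with the limit at 0.1 RPKM. Without a filter 870 genes rose and 846 fell in all, and 895 to 1193 rose with 1 library left out (995 and 931 without replicate 1 or 3 of the mimics, 895 and 958 without replicate 2 or 3 of mimics-NC). Median-of-ratios scaling gave 1356 higher and 1453 lower, and moved the median of all genes by -0.0127 on the log2 scale. With 1 library left out, log2 fold changes that did not pass changed sign for CYP20A1 (-0.0438 to 0.0452), CYP26A1 (-0.151 to 0.0509), CYP2D6 (-0.201 to 0.0695), CYP2S1 (-0.1096 to 0.0109), CYP3A7 (-0.1469 to 0.005), CYP4F12 (-0.0064 to 0.12) and CYP4V2 (-0.0337 to 0.0227); the cause was not tested. With a replicate block 1 CYP gene was higher and 0 lower by limma (1034 and 942 of all genes). The block ended the calls of CYP4F11 at the limit of 0.1 RPKM (adjusted p = 0.116), CYP2U1 by voom (0.0638), NR5A2 (0.057), NR1H4 (0.0842), STS (0.104) and EPHX2 (0.0864), and CYP1A1 passed by voom with it (0.0495). Without a filter the calls of AHR (0.0518), NR1H4 (0.0758), GSTA1 (0.0527), ALDH1A1 (0.108), STS (0.107), EPHX2 (0.124) and CYP4F11 (0.0949) were lost, and with the limit at 0.1 RPKM those of STS (0.0725) and EPHX2 (0.0718). EPHX2 was also lost under median-of-ratios and quantile scaling (0.0544 and 0.0512). Whether same-numbered libraries were paired is not given in the labels. Deviations of same-numbered libraries from their group means correlated at -0.0524, -0.0159 and 0.0235, and those of differently numbered libraries at -0.1129 to 0.1215. With 3 libraries per group these correlations cannot settle whether libraries were paired. The depth left 10 members with at most 3 reads in any library.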
